A study of Mus musculus with 6 samples.

Results

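Genes of the contractile cytoskeleton were followed in lung fibroblasts that expressed trSrebf1, a truncated and active Srebf1c, which switches on genes of lipid synthesis. The set holds 49 genes picked by name: myosin chains and their kinase, calponin and transgelin family members, crosslinking and LIM-domain proteins, focal adhesion proteins, 2 intermediate filament genes, and the SRF and YAP factors. Actins, tropomyosins and integrins were left out of it. All 49 symbols had a row among the 19865 rows of the count tables, and all 49 passed the filter on low counts, among 10194 genes that did.

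The donor cells of both groups were primary lung fibroblasts from Col1a2-GFP transgenic mice, in which the promoter of a collagen gene drives the reporter, and were transduced by retrovirus with either trSrebf1 or a control vector, the vector marker being hLNGFR. Host animals were C57BL/6 mice whose lungs were injured with bleomycin at 2 mg/kg to bring on fibrosis. Cells were placed in the airways on day 5, doxycycline, which induces trSrebf1, is recorded for day 7 in the libraries of both groups, and donor cells were sorted on day 10 as lineage-negative, reporter-positive and marker-positive live cells. PolyA RNA of 10000 sorted cells per library was read by 3'SAGE-seq, which counts short tags near the 3' end of transcripts, in 3 control and 3 trSrebf1 libraries of 3675146 to 4688196 counts. The labels give no age, do not say whether a library came from 1 mouse or several, and do not say whether replicates were separate cultures, so a p-value here reflects variation from library to library, part or all of it perhaps technical.

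In a fibroblast, bundles of actin are pulled by non-muscle myosin II, whose motor is switched on when its regulatory light chain is phosphorylated. The bundles, called stress fibres, end at focal adhesions, where talin, kindlin, vinculin, paxillin and the ILK-parvin complex tie them to integrins. When fibroblasts become myofibroblasts in an injured lung they build more of this apparatus. Much of it is transcribed under SRF, a factor that binds the CArG box and is activated by the actin-sensing co-factors Mkl1 and Mkl2. YAP (Yap1) and TAZ (Wwtr1), which act through TEAD factors, also respond to tension in the cytoskeleton.

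Since many of these genes are textbook SRF targets, the window from 250 bases before to 50 bases after the annotated start was read from the RefSeq promoter table (GRCm38.p6, the build named mm10 in the submitters' processing notes). Windows were found for 42 of the 49 members, Mkl1 and Mkl2 being listed under their current symbols Mrtfa and Mrtfb. The 7 without a window, which could not be searched, were Myh11, Tagln, Pxn, Parva, Tgfb1i1, Csrp2 and Pdlim2. A CArG box, searched as its 10-base consensus without mismatch, which reads alike on both strands, was present for 8 of the 42 members (19.0%), against 1.81% of the 27025 genes in the table. Those members were Cnn2, Fermt2, Fhl1, Fhl2, Myl6, Myl9, Srf and Vcl, with 10 boxes in 9 windows. The windows of the 5 of these genes that fell in trSrebf1 cells, and that of Srf itself, are printed from 5′ to 3′ on the gene's strand, with the CArG boxes in capitals.
Myl9, chr2:156775214-156775513, plus strand: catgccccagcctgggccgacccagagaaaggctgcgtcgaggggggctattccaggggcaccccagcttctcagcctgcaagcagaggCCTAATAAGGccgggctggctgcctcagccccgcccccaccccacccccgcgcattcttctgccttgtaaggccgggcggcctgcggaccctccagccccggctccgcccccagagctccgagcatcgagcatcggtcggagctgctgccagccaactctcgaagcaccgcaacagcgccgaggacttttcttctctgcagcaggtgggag
Cnn2, chr10:79988350-79988649, plus strand: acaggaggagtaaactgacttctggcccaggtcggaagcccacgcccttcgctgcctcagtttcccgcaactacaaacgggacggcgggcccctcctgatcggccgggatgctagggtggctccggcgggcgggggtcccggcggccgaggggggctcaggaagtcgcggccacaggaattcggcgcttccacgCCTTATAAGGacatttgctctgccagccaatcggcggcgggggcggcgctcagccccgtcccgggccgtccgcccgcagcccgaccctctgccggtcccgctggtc
Vcl, chr14:20929148-20929447, plus strand: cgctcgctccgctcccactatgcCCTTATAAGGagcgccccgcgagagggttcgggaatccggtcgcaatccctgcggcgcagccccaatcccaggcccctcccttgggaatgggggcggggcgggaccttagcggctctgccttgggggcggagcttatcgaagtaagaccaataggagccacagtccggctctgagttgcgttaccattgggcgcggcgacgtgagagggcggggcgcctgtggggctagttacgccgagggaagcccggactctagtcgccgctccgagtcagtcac
Fhl1, chrX:56779433-56779732, plus strand: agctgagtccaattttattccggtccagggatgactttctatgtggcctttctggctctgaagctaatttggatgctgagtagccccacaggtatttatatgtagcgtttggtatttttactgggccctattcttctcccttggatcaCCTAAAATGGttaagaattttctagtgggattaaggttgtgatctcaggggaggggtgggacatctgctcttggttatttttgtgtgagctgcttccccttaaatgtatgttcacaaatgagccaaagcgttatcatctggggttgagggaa
Fhl2, chr1:43163912-43164211, minus strand: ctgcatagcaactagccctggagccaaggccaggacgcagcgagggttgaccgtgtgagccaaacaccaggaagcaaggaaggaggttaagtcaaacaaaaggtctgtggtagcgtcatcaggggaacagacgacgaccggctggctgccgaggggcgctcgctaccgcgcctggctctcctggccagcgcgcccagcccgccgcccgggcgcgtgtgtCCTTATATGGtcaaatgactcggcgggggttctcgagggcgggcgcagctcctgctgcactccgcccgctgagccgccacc
Fhl2, chr1:43196712-43197011, minus strand: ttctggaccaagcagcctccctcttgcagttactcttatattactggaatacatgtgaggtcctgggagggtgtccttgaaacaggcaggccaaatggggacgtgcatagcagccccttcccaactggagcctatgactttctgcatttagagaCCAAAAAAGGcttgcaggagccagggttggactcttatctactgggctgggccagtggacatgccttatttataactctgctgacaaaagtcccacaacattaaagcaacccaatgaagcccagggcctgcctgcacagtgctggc
Srf, chr17:46556113-46556412, minus strand: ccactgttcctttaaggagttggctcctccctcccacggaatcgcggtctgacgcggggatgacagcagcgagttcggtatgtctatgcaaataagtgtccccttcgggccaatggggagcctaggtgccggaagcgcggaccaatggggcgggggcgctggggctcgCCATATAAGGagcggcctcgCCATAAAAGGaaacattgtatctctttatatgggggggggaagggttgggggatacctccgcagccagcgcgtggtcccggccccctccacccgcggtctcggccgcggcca
The first base of the box lay 161 bases before the start in Myl9, 56 in Cnn2, 227 in Vcl and 102 in Fhl1. In Fhl2 it lay 31 and 96 bases before the 2 annotated starts, and Srf held 2 boxes in 1 window, 82 and 62 bases before its start.

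Most of the apparatus was lower in trSrebf1 than in control fibroblasts. Of the 49 members 29 fell and 3 rose, and 17 did not pass the threshold (edgeR quasi-likelihood test, adjusted p under 0.05 over all tested genes). Levels are in CPM (counts scaled to a common library total), "fell by" and "rose by" give the log2 fold change of trSrebf1 over control, and SE is its standard error. Among all tested genes 13.0% were called lower and 17.2% higher, or 30.2% either way. The members were chosen with earlier results of these data known, so these shares are a reference and not an independent test. The same shares stand as the reference for the counts called in each role group, marker list and motif group below. A fall of more than 1 on the log2 scale was called for 12 members, against 5.85% of all tested genes. Myh11, Synpo2 and Fhl2, which are among these 12 and among the 29, passed the filter on low counts through their control libraries. Their trSrebf1 libraries alone would not have met it, so their falls are no independent support. The median log2 fold change of the members was -0.66, while that of all tested genes was -0.01. For 36 members no trSrebf1 library overlapped the control libraries, 32 of them lower in trSrebf1, where 43.4% of all tested genes did not overlap and 20.2% were lower without overlap.

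**Figure D1:**
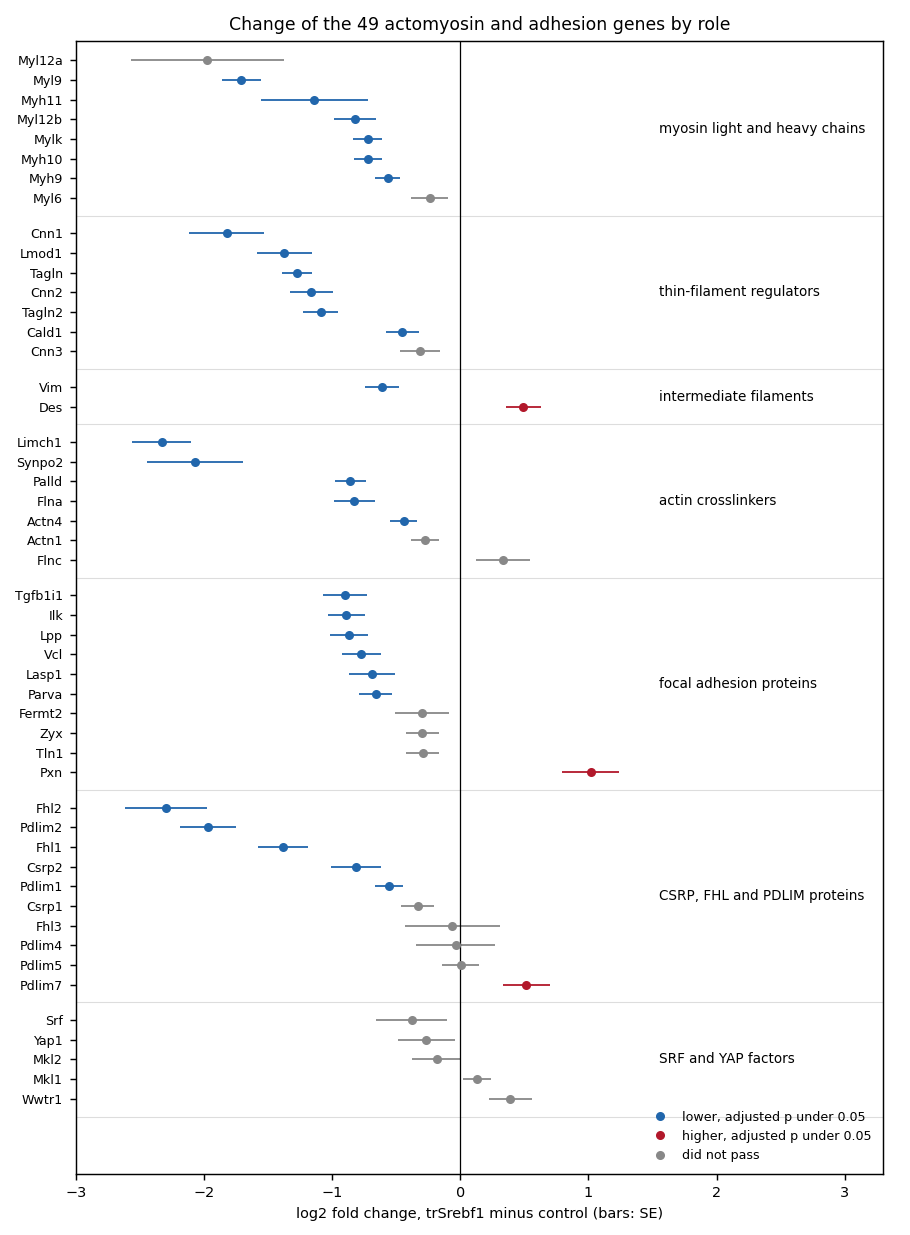
Log2 fold change (trSrebf1 minus control, x axis) of each of the 49 members, grouped by role, with the standard error as bars. Blue points fell (29), red points rose (3) and grey points did not pass the threshold (17), and all 5 SRF and YAP factors are grey.

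**Figure D2:**
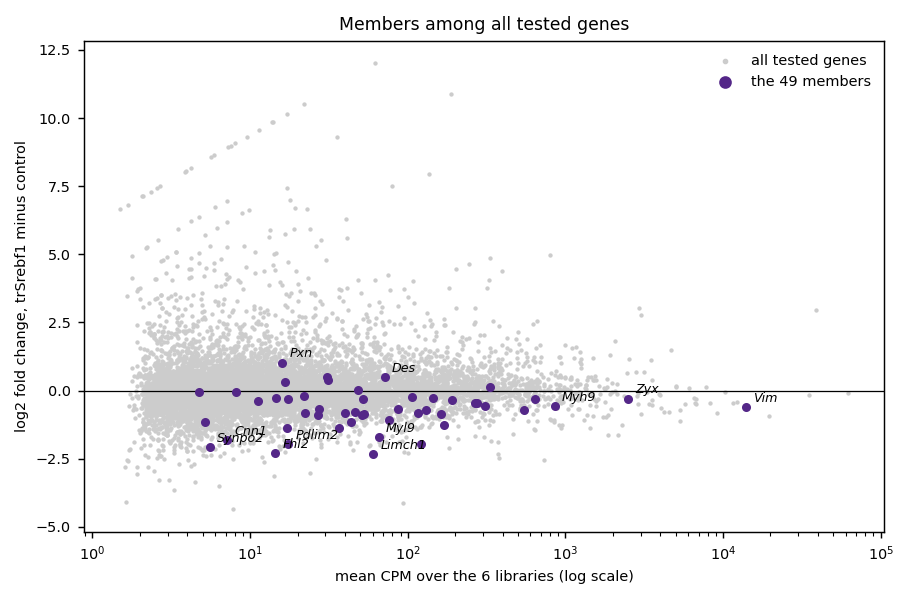
Log2 fold change (y axis) against the mean CPM over the 6 libraries (log x axis) for the 10194 tested genes in grey and the 49 members in purple. The members lie mostly below 0, from Synpo2 at a few CPM to Vim at over 10000 CPM.

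The shift was present in each trSrebf1 library. Relative to the mean of the control libraries, the median member stood at -0.64, -0.50 and -0.66 on the log2 scale in the 3 trSrebf1 libraries and at 0.11, -0.02 and -0.07 in the control libraries. The control values enter their own reference. Thin-filament regulators were the lowest role group, at -1.24, -1.06 and -1.20 in the trSrebf1 libraries. The SRF and YAP factors, in contrast, stood at -0.26, 0.04 and -0.06, overlapping the control libraries at -0.07, 0.17 and -0.06. Within a group the members had a median coefficient of variation of 12.7% in control and 12.9% in trSrebf1, against 17.3% and 16.3% for all tested genes. The widest spread was 39.5% for Fhl3 in control and 62.3% for Myh11 in trSrebf1, where Myl12a (59.9%), Fhl2 (48.5%) and Synpo2 (48.0%) also varied widely.

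**Figure D3:**
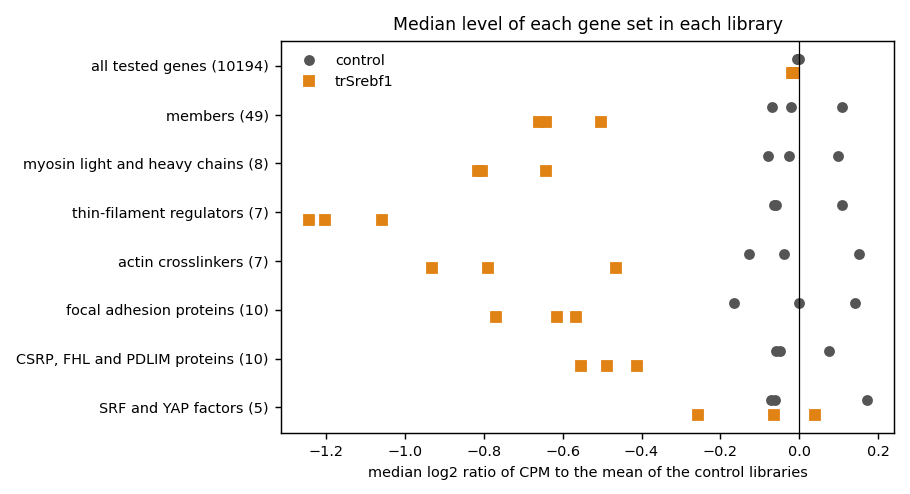
Median over genes of the log2 ratio of CPM to the control mean (x axis) for all tested genes, all members and 6 of the role groups (the pair of intermediate filament genes is left out), with 1 point per library, control in grey and trSrebf1 in orange. The trSrebf1 points lie below the control points in 5 of those 6 role groups and overlap them for the SRF and YAP factors.

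As a check of the labels, the level of Srebf1 (mouse chromosome 11) was 8.35, 5.13 and 7.75 CPM in the control libraries and 28.5, 31.1 and 24.5 CPM in the trSrebf1 libraries. The groups did not overlap, and Srebf1 rose by 1.98 (SE 0.23, adjusted p = 2.88e-06). Tags of the transgene and of the mouse gene cannot be told apart. All 10 fibroblast markers had tags in every library, from Pdgfra at 3.21 to 13.6 CPM up to the collagens and Dcn, which made up most of the sum. Of the 10, 8 fell, 1 (Pdgfrb) rose by 0.86 (SE 0.12), and 1 (Col1a1) did not pass the threshold at 0.12 (SE 0.10). The summed level of the 10 was 29863 to 35059 CPM in control and 21060 to 24017 CPM in trSrebf1. Of 15 listed markers of pericytes and smooth muscle that are no members, 13 had a row and 9 were tested, of which 6 fell and 1 rose. The riser was the pericyte marker Cspg4, from 16.3 ± 5.91 CPM in control to 120 ± 19.1 CPM in trSrebf1 (SD, n = 3 each). Its log2 fold change was 2.87 (SE 0.21). Pericyte markers were also among the 6 that fell. Ndufa4l2 stood at a log2 fold change of -2.30 (SE 0.51), Abcc9 at -1.44 (SE 0.46) and Kcnj8 at -1.12 (SE 0.30). Their control means were low, at 5.43, 6.64 and 12.3 CPM. Ndufa4l2 and Abcc9 passed the filter on low counts through their control libraries, so their falls are no independent support. The sum of the list was 2159 to 2509 CPM in control and 978 to 1132 CPM in trSrebf1. Most of it came from the smooth muscle actin Actg2 and from Smtn, so it says little of pericytes. These 2 genes had means of 1367 and 792 CPM in control and 522 and 370 CPM in trSrebf1. Leukocyte markers were near 0, with 7 of 15 listed symbols having a row and a sum of 1.03 to 6.26 CPM in control and 1.93 to 2.78 CPM in trSrebf1. Endothelial markers (7 of 9 with a row) summed to 1.64 to 2.57 CPM in control and 7.70 to 8.33 CPM in trSrebf1, where Egfl7 made up most of it. The sums of epithelial (10.7 to 16.2 and 13.2 to 29.5 CPM), mesothelial (37.0 to 45.5 and 26.3 to 37.9 CPM), striated muscle (3.59 to 7.51 and 8.13 to 10.0 CPM) and blood cell markers (1.54 to 3.91 and 0.252 to 1.71 CPM) were low in both groups. Of 19 genes of the immediate early response, several of them SRF targets and known as a class to react to cell isolation, 16 fell and 0 rose. The reference for the counts of these lists is again the 13.0% of all tested genes called lower and the 17.2% called higher. The part of these lists in the results on the members was not tested, and in RNA pooled from sorted cells fewer contractile cells and less RNA per cell cannot be told apart.

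Myosin II genes fell at the level of both motor and light chains. Of 8 genes 6 fell, 2 did not pass the threshold and 0 rose, with a median log2 fold change of -0.77. Myl9 (chromosome 2, 156775420 to 156781658, plus strand), the regulatory light chain of smooth muscle and non-muscle myosin whose promoter window is printed above, stood at 115, 95.8 and 91.3 CPM in the control libraries and 27.0, 35.3 and 30.0 CPM in the trSrebf1 libraries. Every trSrebf1 library was below every control library, and the gene fell by 1.71 (SE 0.15, adjusted p = 1.36e-07). Myl12b, a second regulatory light chain, fell by 0.82 (SE 0.16).

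The non-muscle heavy chain gene Myh10 (chromosome 11, 68691559 to 68816632, plus strand), which encodes the motor of myosin IIB, stood at 615, 682 and 731 CPM in the control libraries and 384, 433 and 415 CPM in the trSrebf1 libraries. The groups did not overlap, and Myh10 fell by 0.72 (SE 0.11, adjusted p = 4.38e-05). Mylk, the kinase that phosphorylates the regulatory light chain, stood at 173, 156 and 163 CPM in the control libraries and 94.2, 105 and 98.9 CPM in the trSrebf1 libraries. It fell by 0.72 (SE 0.11, adjusted p = 7.90e-05), again without overlap. The other non-muscle heavy chain, Myh9, which encodes the motor of myosin IIA, fell by 0.57 (SE 0.10), from 1024 ± 42.2 CPM to 691 ± 42.6 CPM (SD, n = 3 each).

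Myh11, the smooth muscle heavy chain, was at a low level of 7.83, 8.99 and 4.46 CPM in the control libraries and 1.71, 5.55 and 2.50 CPM in the trSrebf1 libraries, and its groups overlapped. It fell by 1.14 (SE 0.42, adjusted p = 0.0496), and this call was lost with DESeq2 (adjusted p = 0.0721), without control replicate 1 (0.108) or 2 (0.187) and without trSrebf1 replicate 1 (0.201) or 3 (0.152), the alternatives spanning 0.00714 to 0.201. Without trSrebf1 replicate 2 its log2 fold change was -1.73. Myl6, the essential light chain, had a log2 fold change of -0.24 (with SE 0.15 and adjusted p = 0.249), and without control replicate 1, the library in which it was lowest among controls, it was -0.40 (adjusted p = 0.0195, the alternatives spanning 0.0195 to 0.571).

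Myl12a was singled out after its values were seen, because 1 library stood apart. This regulatory light chain stood at 183, 245 and 152 CPM in the control libraries and 61.6, 15.4 and 69.5 CPM in the trSrebf1 libraries. All trSrebf1 libraries were below all control libraries, and trSrebf1 replicate 2 was far below the other two. Its log2 fold change of -1.97 had a wide error (SE 0.60, adjusted p = 0.0779), and without trSrebf1 replicate 2 it was -1.55 (adjusted p = 1.61e-05). With all 6 libraries DESeq2 also called it lower, at -1.99 (adjusted p = 0.00813), and the alternatives spanned 1.61e-05 to 0.244. Myl12a (chromosome 17, 70993656 to 71002878, minus strand) and Myl12b are neighbours whose 3' ends share near-identical sequence in some transcripts, so the split of tags between them is uncertain. The sum of the pair, which such a split leaves alone, was 244 ± 54.2 CPM in control and 77.7 ± 30.8 CPM in trSrebf1 (SD, n = 3 each), with trSrebf1 replicate 2 again lowest at 42.2 CPM. Gm2805 and Gm6517 also match the 3' ends of both genes, so the sum too is uncertain.

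Proteins that bind the thin filament had the lowest median of the role groups. Of 7 genes 6 fell, 1 did not pass and 0 rose, with a median log2 fold change of -1.16. Among all tested genes 13.0% were called lower and 17.2% higher. For all 7 the groups were fully separate, where 43.4% of all tested genes did not overlap and 20.2% were lower without overlap. Tagln (chromosome 9, 45929619 to 45936058, minus strand), also called SM22, an early marker of smooth muscle and myofibroblasts, stood at 269, 234 and 215 CPM in the control libraries and 101, 91.9 and 104 CPM in the trSrebf1 libraries. It fell by 1.28 (SE 0.12, adjusted p = 1.95e-07). Its non-muscle relative Tagln2 stood at 111, 96.3 and 102 CPM in the control libraries and 53.1, 49.2 and 43.0 CPM in the trSrebf1 libraries and fell by 1.09 (SE 0.13, adjusted p = 6.61e-06). Both transgelins were lower in every trSrebf1 library than in any control library.

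Among the calponins, which bind actin and damp myosin ATPase, Cnn1 and Cnn2 fell and Cnn3 did not pass the threshold. Cnn2 (chromosome 10, 79988584 to 79996062, plus strand), the form found in many non-muscle cells, stood at 72.0, 51.9 and 58.2 CPM in the control libraries and 22.9, 28.5 and 30.0 CPM in the trSrebf1 libraries. It fell by 1.16 (SE 0.17, adjusted p = 4.32e-05), with no overlap of the groups. Cnn1, the smooth muscle calponin, fell by 1.82 (SE 0.29), from 11.2 ± 1.21 CPM to 3.14 ± 0.446 CPM (SD, n = 3 each). Cnn3, the acidic calponin, had a log2 fold change of -0.31 (with SE 0.15 and adjusted p = 0.144), and near-identical pseudogene copies of its 3' end make its value uncertain.

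Lmod1, which nucleates actin filaments in smooth muscle, fell by 1.37 (SE 0.22), from 24.6 ± 3.13 CPM to 9.53 ± 1.81 CPM (SD, n = 3 each). Cald1, the caldesmon gene, whose product links myosin and the thin filament, fell by 0.45 (SE 0.13, adjusted p = 0.0121). Leaving out control replicate 2 (adjusted p = 0.0627) or trSrebf1 replicate 3 (0.0782) ended the call, the alternatives spanning 0.00105 to 0.0782.

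**Figure D4:**
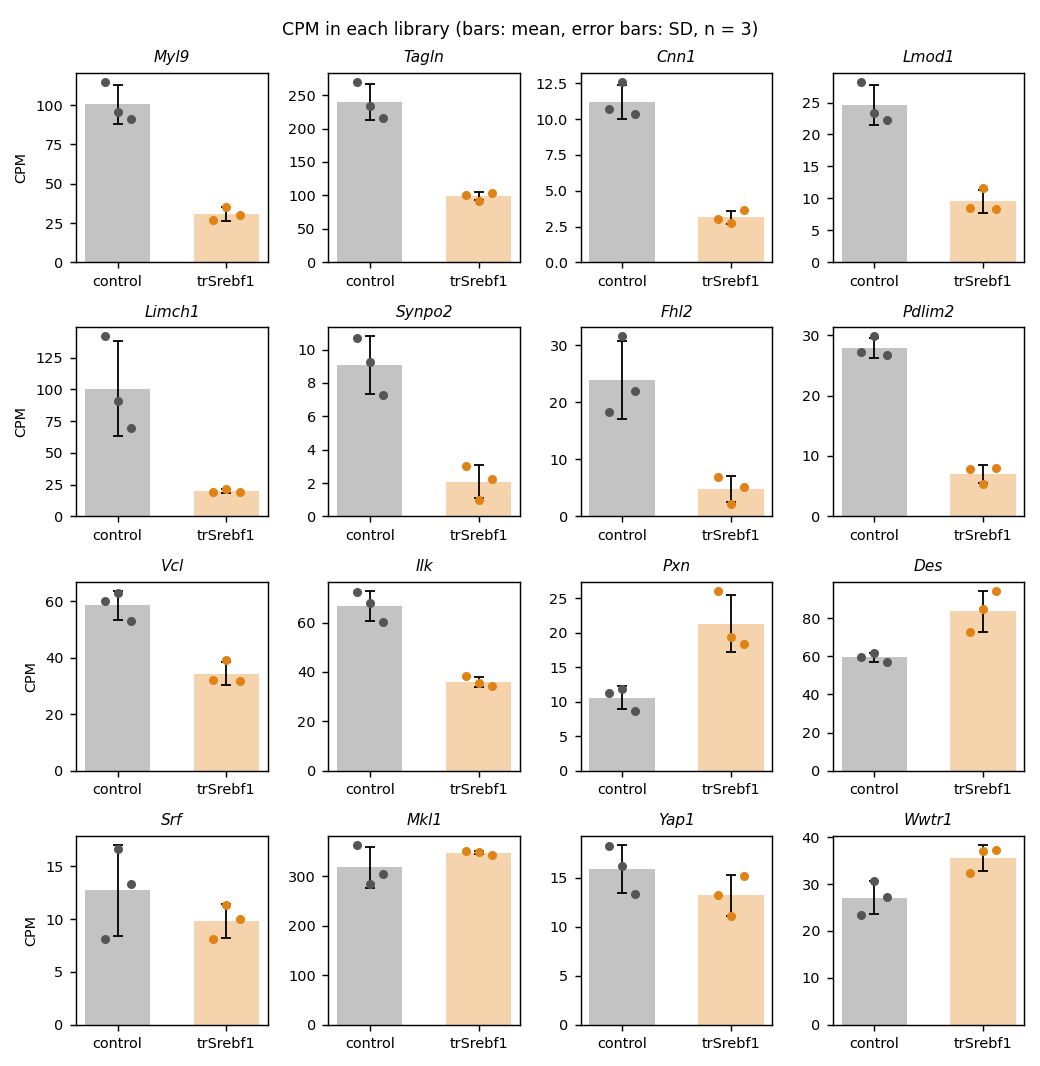
CPM (y axis, starting at 0, scaled to each gene) of 16 members in each library, with points for the 3 control (grey) and 3 trSrebf1 (orange) libraries, bars for the mean and error bars for the SD. Myl9, Tagln, Cnn1, Lmod1, Limch1, Synpo2, Fhl2, Pdlim2, Vcl and Ilk were lower and Pxn and Des higher in all trSrebf1 libraries, whereas points of the groups overlap for Srf, Mkl1 and Yap1.

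The intermediate filament genes moved in opposite directions. Vim (chromosome 2, 13573927 to 13582826, plus strand), the vimentin gene and the most abundant member, stood at 20992, 13726 and 16078 CPM in the control libraries and 10370.5, 12156 and 10711 CPM in the trSrebf1 libraries. The groups did not overlap, control replicate 1 was the highest library, and Vim fell by 0.61 (SE 0.13, adjusted p = 0.00255). Des, which encodes the muscle filament protein desmin, stood at 59.7, 61.9 and 57.0 CPM in the control libraries and 72.5, 84.6 and 94.1 CPM in the trSrebf1 libraries. It rose by 0.49 (SE 0.14, adjusted p = 0.0106) without overlap, a call that ended without control replicate 3 (adjusted p = 0.055) or trSrebf1 replicate 3 (0.0631), the alternatives spanning 0.00504 to 0.0631.

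Among 7 proteins that bundle or scaffold actin 5 fell, 2 did not pass and 0 rose, with a median log2 fold change of -0.83. Limch1 (chromosome 5, 66745827 to 67057158, plus strand), which activates non-muscle myosin II, showed the largest fall of all 49 members. It stood at 142, 90.6 and 69.7 CPM in the control libraries and 19.3, 21.5 and 19.3 CPM in the trSrebf1 libraries. The control libraries differed among themselves while the trSrebf1 libraries were close together and far below them, and Limch1 fell by 2.33 (SE 0.23, adjusted p = 4.48e-06).

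Palld (chromosome 8, 61511433 to 61902690, minus strand), whose product palladin crosslinks actin in stress fibres, stood at 232, 191 and 203 CPM in the control libraries and 103, 123 and 121 CPM in the trSrebf1 libraries. It fell by 0.86 (SE 0.12, adjusted p = 2.25e-05) without overlap. Synpo2, the gene of myopodin, an actin-bundling protein of muscle, stood at 10.7, 9.24 and 7.28 CPM in the control libraries and 3.0, 1.01 and 2.27 CPM in the trSrebf1 libraries. All trSrebf1 libraries were below all controls at a low depth of 4 to 14 tags, and it fell by 2.07 (SE 0.37, adjusted p = 3.54e-04).

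Filamin A (Flna) and alpha-actinin 4 (Actn4), widely expressed crosslinkers, fell by 0.83 (SE 0.16) and 0.44 (SE 0.10). The other actinin, Actn1, had a log2 fold change of -0.28 (with SE 0.11 and adjusted p = 0.0668), and the muscle filamin Flnc had one of 0.33 (SE 0.21, adjusted p = 0.262) with overlapping groups.

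Focal adhesion genes fell for the most part, with 6 of 10 lower, 3 not past the threshold and 1, the paxillin gene, higher (median -0.67). Ilk (chromosome 7, 105736592 to 105742925, plus strand), which encodes the integrin-linked pseudokinase, stood at 72.5, 67.8 and 60.3 CPM in the control libraries and 38.3, 35.6 and 34.3 CPM in the trSrebf1 libraries. It fell by 0.89 (SE 0.15, adjusted p = 1.33e-04) without overlap, and its partner Parva, alpha-parvin, fell by 0.66 (SE 0.13). Lpp, a zyxin-family LIM protein, stood at 77.7, 64.2 and 63.4 CPM in the control libraries and 35.3, 36.6 and 40.5 CPM in the trSrebf1 libraries. It fell by 0.87 (SE 0.15, adjusted p = 2.00e-04), again without overlap.

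Tgfb1i1, which encodes Hic-5, a paxillin relative induced by TGF-beta, stood at 39.9, 34.7 and 31.0 CPM in the control libraries and 17.3, 20.2 and 19.1 CPM in the trSrebf1 libraries. Every trSrebf1 library was lower than every control library, and it fell by 0.90 (SE 0.17, adjusted p = 6.65e-04). Vinculin (Vcl), which reinforces the link of talin to actin and whose promoter window is printed above, fell by 0.77 (SE 0.15), from 58.6 ± 5.20 CPM to 34.4 ± 4.15 CPM (SD, n = 3 each). Lasp1, a LIM and SH3 protein at adhesions, fell by 0.69 (SE 0.18), and a pseudogene copy of its 3' end makes the value uncertain.

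Paxillin went against its group. Pxn (chromosome 5, 115506676 to 115555987, plus strand), the adaptor that recruits signalling proteins to adhesions, stood at 11.2, 11.8 and 8.68 CPM in the control libraries and 26.1, 19.4 and 18.4 CPM in the trSrebf1 libraries. All trSrebf1 libraries were above all controls, and Pxn rose by 1.02 (SE 0.23, adjusted p = 0.00205). It was the one member of the 3 risers whose call was kept under all 13 alternatives.

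Talin, kindlin and zyxin had smaller values that did not pass the threshold. Talin 1 (Tln1), which activates integrins, had a log2 fold change of -0.29 (with SE 0.13 and adjusted p = 0.0994), and its groups overlapped. Kindlin-2 (Fermt2), its co-activator, had one of -0.30 (SE 0.21, adjusted p = 0.324). Zyxin (Zyx), which moves to strained stress fibres, had one of -0.30 (SE 0.13, adjusted p = 0.0998), at 3443, 2413 and 2411 CPM in the control libraries and 2069, 2375 and 2292 CPM in the trSrebf1 libraries. With library totals in place of the TMM factors, Tln1 (adjusted p = 0.0204), Zyx (0.0193) and Actn1 (0.0199) were called lower, Zyx also with no filter on low counts (0.0338) and Actn1 with a filter of 5 CPM (0.0454), the alternatives spanning 0.0204 to 0.434, 0.0193 to 0.479 and 0.0199 to 0.179.

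The CSRP, FHL and PDLIM families, small LIM-domain proteins that ride on actin or the Z-disc, were the most mixed. Of 10 genes 5 fell, 1 rose and 4 did not pass, with a median log2 fold change of -0.44. Pdlim2 (chromosome 14, 70164218 to 70177681, minus strand), which links alpha-actinin to a ubiquitin ligase activity that acts on nuclear targets, stood at 27.1, 29.8 and 26.8 CPM in the control libraries and 7.92, 5.30 and 7.95 CPM in the trSrebf1 libraries. It fell by 1.97 (SE 0.22, adjusted p = 1.90e-06) without overlap. Pdlim1 also fell, by 0.56 (SE 0.11), with a pseudogene copy of its 3' end.

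Fhl2 (chromosome 1, 43123074 to 43196984, minus strand), a co-factor of SRF and of other transcription factors as well as an adhesion protein, stood at 18.3, 31.6 and 22.1 CPM in the control libraries and 6.85, 2.27 and 5.23 CPM in the trSrebf1 libraries. All trSrebf1 libraries were below all controls, trSrebf1 replicate 2 was the lowest, and Fhl2 fell by 2.29 (SE 0.32, adjusted p = 3.33e-05). Fhl1, its muscle relative, stood at 47.5, 59.8 and 51.6 CPM in the control libraries and 17.1, 27.8 and 16.4 CPM in the trSrebf1 libraries, without overlap. It fell by 1.38 (SE 0.20, adjusted p = 3.24e-05). Their relative Fhl3 had a log2 fold change of -0.06 (SE 0.37) at a mean below 5 CPM in both groups, too shallow to show any but a large difference.

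Csrp2, a muscle LIM protein, fell by 0.81 (SE 0.20), and Csrp1 had a log2 fold change of -0.33 (with SE 0.13 and adjusted p = 0.0629) that was past the threshold with library totals (0.0198) and without control replicate 2 (0.0329), the alternatives spanning 0.0198 to 0.275. Pdlim4 and Pdlim5 had log2 fold changes of -0.03 (SE 0.31) and 0.00 (SE 0.14), and their groups overlapped. Pdlim7, the enigma gene, whose product tethers kinases to the cytoskeleton, stood at 30.0, 21.1 and 24.9 CPM in the control libraries and 35.3, 42.4 and 30.9 CPM in the trSrebf1 libraries. It rose by 0.51 (SE 0.18, adjusted p = 0.0414) without overlap, but the call was lost with DESeq2 (adjusted p = 0.0752), with the replicate number as a block (0.0617), with library totals (0.0707), without the counts of Ctsd, a lysosomal protease gene that took 6.53 to 6.81% of the trSrebf1 counts (0.0503), and without control replicate 2 (0.179) or 3 (0.115) or trSrebf1 replicate 1 (0.0771) or 2 (0.164), the alternatives spanning 0.0155 to 0.179.

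None of the 5 SRF and YAP factors passed the threshold, by edgeR or by DESeq2, although 1, Wwtr1, had an unadjusted p under 0.05. Srf stood at 8.09, 16.7 and 13.4 CPM in the control libraries and 8.13, 11.4 and 10.0 CPM in the trSrebf1 libraries, and both groups overlapped (log2 fold change -0.38, SE 0.28, adjusted p = 0.342). Mkl1 (chromosome 15, 81012281 to 81190757, minus strand) stood at 363, 285 and 304 CPM in the control libraries and 350.1, 348 and 343 CPM in the trSrebf1 libraries, with a log2 fold change of 0.13 (with SE 0.11 and adjusted p = 0.425). Mkl2 stood at 22.2, 26.7 and 21.1 CPM in the control libraries and 17.8, 24.0 and 20.0 CPM in the trSrebf1 libraries, with one of -0.18 (SE 0.19, adjusted p = 0.521). The values of Srf, Mkl1 and Mkl2 overlapped between the groups, which does not show that they were equal, and tags count transcripts, not the nuclear entry by which Mkl1 and Mkl2 are controlled.

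Yap1 stood at 18.3, 16.2 and 13.4 CPM in the control libraries and 13.3, 11.1 and 15.2 CPM in the trSrebf1 libraries, with a log2 fold change of -0.27 (with SE 0.22 and adjusted p = 0.416). Wwtr1 stood at 23.5, 30.6 and 27.2 CPM in the control libraries and 32.3, 37.1 and 37.3 CPM in the trSrebf1 libraries. It was higher in every trSrebf1 library than in any control library, but its log2 fold change of 0.39 (SE 0.17, unadjusted p = 0.0309, adjusted p = 0.0884) did not pass the edgeR threshold.

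Beyond the CArG box, the TEAD motif GGAATG, searched on both strands, was present in the windows of 15 of 42 matched members (35.7%) and of 16.6% of all genes in the table. The E-box CANNTG, which SREBP proteins can bind and which reads alike on both strands, was present for 26 of 42 (61.9%) and for 75.0% of all genes. Of the 8 members with a CArG box 5 fell, and of the 34 with a window but no box 18 fell, with median log2 fold changes of -0.97 and -0.50. The 7 members without a window, among them Tagln and Myh11, are in neither count for any motif. For the E-box 17 of 26 with it and 6 of 16 without it fell (medians -0.77 and -0.30), and for the TEAD motif 10 of 15 and 13 of 27 (medians -0.72 and -0.38), so the difference in medians went the same way for all 3 motifs. The other members with a CArG box, Fermt2, Myl6 and Srf, did not pass the threshold. Fhl2 (with a CArG box and an E-box) and Synpo2 (with an E-box) are among those that fell in these counts. Both passed the filter on low counts through their control libraries, so their falls are no independent support for these counts or medians. Among all tested genes 13.0% were called lower. In the windows of the members no CArG match overlapped a match of either other motif, and 1 window held an E-box that overlapped a TEAD match. A match is a description of the letters in the window, not evidence of binding.

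To see whether close relatives kept their balance, the log2 ratio of CPM (with 0.5 CPM added to each) was formed within each library for 16 pairs of related members. For 9 pairs the ratios of the groups did not overlap, and each of these reached the smallest p that 3 against 3 libraries allow (exact two-sided permutation test, p = 0.1, adjusted p = 0.178 over the 16 pairs), so none could pass a threshold of 0.05. The levels of single genes did not overlap for 43.4% of all tested genes, and no such share was computed for other pairs. The count of 9 is therefore a description and not a result about relatives. The ratio of filamins Flna to Flnc went from 3.28 ± 0.06 in control to 2.11 ± 0.29 in trSrebf1 (SD, n = 3 each). That of Fhl2 to Fhl3 went from 2.23 ± 0.22 in control to -0.05 ± 1.03 in trSrebf1, with trSrebf1 replicate 2 lowest at -1.24. That of the calponins Cnn2 to Cnn3 went from 0.07 ± 0.27 in control to -0.76 ± 0.03 in trSrebf1.

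The ratio of Myl6 to Myl9, the essential to the regulatory light chain, went from 0.18 ± 0.50 in control to 1.66 ± 0.25 in trSrebf1 (SD, n = 3 each), and that of Yap1 to Wwtr1 from -0.75 ± 0.35 in control to -1.40 ± 0.25 in trSrebf1. The ratio of Csrp1 to Csrp2 went from 2.87 ± 0.08 in control to 3.35 ± 0.13 in trSrebf1. By contrast the heavy chains Myh9 and Myh10 (from 0.60 ± 0.17 in control to 0.75 ± 0.05 in trSrebf1), the transgelins Tagln and Tagln2 (from 1.21 ± 0.11 in control to 1.03 ± 0.21 in trSrebf1) and the actinins Actn1 and Actn4 (from -1.01 ± 0.12 in control to -0.85 ± 0.14 in trSrebf1) had ratios that overlapped between the groups.

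**Figure D5:**
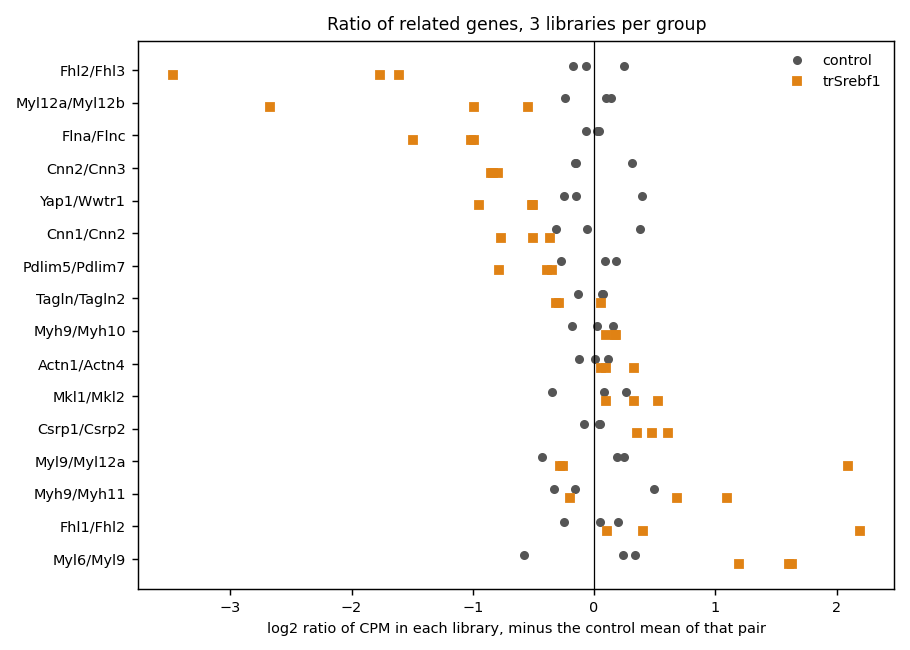
Log2 ratio of the CPM of 2 related members in each library, minus the control mean of the pair (x axis), for 16 pairs (y axis), with control libraries as grey circles and trSrebf1 libraries as orange squares. The groups do not overlap for 9 pairs, from Fhl2 over Fhl3 at the low end to Myl6 over Myl9 at the high end, and overlap for 7, among them Myh9 over Myh10.

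Genes of the wider pathway went both ways. Of 39 tested focal adhesion signalling and actin-end proteins 15 fell, 6 rose and 18 did not pass (median -0.24). Among all tested genes 13.0% were called lower and 17.2% higher, so the share of the list that rose was not above that of all tested genes. Svil, the gene of supervillin, which binds myosin II and actin at the membrane, stood at 42.8, 48.5 and 40.6 CPM in the control libraries and 273, 206 and 247 CPM in the trSrebf1 libraries. It rose by 2.46 (SE 0.13, adjusted p = 3.63e-10), far from any overlap. Enah, which speeds actin elongation, rose by 0.93 (SE 0.10), with a 3' end nearly shared with another gene. Synpo (synaptopodin) and Fblim1 (migfilin, which joins filamin to kindlin) fell by 1.48 (SE 0.14) and 1.53 (SE 0.15).

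Of 28 tested genes of the YAP, TEAD and SRF pathway 11 fell, 3 rose and 14 did not pass (median -0.15). Here too the share that rose was not above the 17.2% of all tested genes, of which 13.0% were called lower. The junction protein Amotl2, itself a YAP target, fell by 0.87 (SE 0.14), and Sdpr, a caveolar coat protein, fell by 1.05 (SE 0.19). The LATS inhibitor Limd1 rose by 1.43 (SE 0.11). Tead2, a DNA-binding partner of YAP, rose by 1.54 (SE 0.20), from 9.56 ± 0.928 CPM to 27.9 ± 3.52 CPM (SD, n = 3 each).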

How the data were processed

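Each library had 1 deposited table of whole-number tag counts per gene symbol. Bowtie2 2.2.5 and the build mm10 are named without a role, per the submitters' processing notes, while the counter, the annotation and whether strand was used were not given in the sources used here. The test was edgeR 4.0.16 under R 4.3.3 on these counts (TMM factors, filterByExpr with minimum count 10, robust glmQLFit, glmQLFTest, group as the only term, Benjamini-Hochberg adjustment over 10194 genes, threshold 0.05). SE is the absolute log2 fold change over the root of F, and CPM used the TMM-scaled library sizes. The fit was tested on simulated data. DESeq2 1.42.0, other normalizations and filters, a replicate block and leaving out each library were the alternatives.

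The members and lists were chosen with earlier results of these data known. All 49 members were named or counted. Values in every library were given for the 3 members of each role group with the smallest p, those called against their group and the SRF and YAP factors, and up to 4 genes were named per pathway list. A further pathway list is not reported here. Of the members 46 met the filter in every library of both groups, whereas Myh11, Synpo2 and Fhl2 met it in all control libraries but not in all trSrebf1 libraries. Chi-square over degrees of freedom between libraries of a group was 4.52 to 8.13, where counting error gives about 1, so none was treated as a copy. Gene positions came from GENCODE vM21 (GRCm38). For 7 members the last 300 bases of a transcript match another gene or pseudogene over 100 bases or more at 95% identity (Myl6, Myl12a, Myl12b, Cnn3, Lasp1, Fhl3 and Pdlim1). For 8 an exon near the 3' end overlaps a gene on the opposite strand (Mylk, Tagln, Des, Actn4, Vcl, Zyx, Ilk and Mkl1), whose tags cannot be told apart without strand.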

Additional observations from a re-analysis of the deposited data

How the results depend on the processing

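Over 13 alternatives 28 of the 32 called members, 27 lower and 1 higher (Pxn), kept their direction and their side of the threshold. The other 4 (Myh11, Cald1, Des and Pdlim7) lost the call under at least 1, and 6 of the 17 uncalled members gained one. The count of members called lower was 27 to 30 when 1 library was left out and 29 to 33 under the other alternatives, and the median log2 fold change of the members was -0.73 to -0.58. The count called higher was 1 to 3 when 1 library was left out, and 1 without control replicate 3. The sign of 3 uncalled members turned. Fhl3, which ranged from -0.32 to 0.23 when 1 library was left out, was 0.23, 0.00188 and 0.09 without control replicate 2, trSrebf1 replicate 1 and trSrebf1 replicate 3. Pdlim4 ranged from -0.37 to 0.12 and was 0.07, 0.06, 0.12 and 0.11 without control replicates 1 and 3 and trSrebf1 replicates 1 and 2. Pdlim5 was -1.08e-05 in edgeR with RLE size factors in place of the TMM factors. It was -0.00877 under a filter of 5 CPM, -0.0656 with library totals and -0.0118 without Ctsd. Without control replicates 1 and 2 and trSrebf1 replicate 1 it was -0.00154, -0.03 and -0.0618, with a highest value of 0.0562 when 1 library was left out. The difference of the Myl9 to Myl12a ratio was -0.27 without trSrebf1 replicate 2, against 0.52 with it and at most 0.92 when another library was left out. The cause of these changes was not tested.

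Libraries with the same replicate number did not deviate together (correlations of 0.00255, -0.120 and -0.0631 for numbers 1, 2 and 3), and not every library correlated best with its own number. With 3 libraries per group this check cannot exclude pairing, and the labels name none. With the replicate number as a block 1174 genes were called lower and 1646 higher, against 1328 and 1755 without it, and 29 members were called lower and 2 higher. Genes under 10 CPM, such as Fhl3, Pdlim4, Myh11 and Synpo2, rest on few tags and show only large differences.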

Other observations

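Related genes did not all go the same way, and the examples here were named after their values were seen. Parvb, beta-parvin, stood at 8.09, 5.13 and 7.04 CPM in the control libraries and 22.5, 29.0 and 16.8 CPM in the trSrebf1 libraries and rose by 1.75 (SE 0.26, adjusted p = 5.39e-05), while Parva fell. Fermt3, the kindlin of blood cells, stood at 4.44, 2.05 and 3.76 CPM in the control libraries and 14.8, 21.7 and 20.5 CPM in the trSrebf1 libraries and rose by 2.46 (SE 0.30, adjusted p = 5.49e-06), while its relative Fermt2 did not pass the threshold. In the same libraries the leukocyte markers with a row, 7 of 15 listed symbols, summed to at most 6.26 CPM in control and 2.78 CPM in trSrebf1. Which cells the Fermt3 tags came from was not tested. Tead1 and Tead3, among the 3 TEAD factors tested, fell by 0.70 (SE 0.17) and 1.16 (SE 0.23) while Tead2 rose. On the YAP, TEAD and SRF list, in which 11 of 28 tested genes fell and 3 rose, Ankrd1, Ctgf and Cyr61 fell by 1.73 (SE 0.35), 0.90 (SE 0.16) and 0.56 (SE 0.11). On the same list Axl, Ptrf and Filip1l, at 0.38 (SE 0.15), 0.26 (SE 0.13) and -0.51 (SE 0.30), did not pass the threshold. All adjusted p-values are from edgeR over all tested genes.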
